A study of Danio rerio with 2 samples.

Results

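The genes described here act in the lens and are called lens fibre genes below, although foxe3 is a factor gene of the lens epithelium. They include the water channel genes mipa and mipb and the membrane protein genes lim2.1, lim2.3 and lim2.4. The others are the beaded filament genes bfsp1 and bfsp2 and the transcription factor genes foxe3, pitx3 and hsf4. All 10 were sought by symbol in a deposited table of 33733 genes. Of these symbols 9 were found, since no row carries the symbol bfsp1. Crystallin genes were left out of the set. The study compared whole zebrafish larvae of the AB/TL strain at 5 days post fertilisation (dpf), homozygous for the allele lri25 or wild type from the same clutches. Each genotype is 1 library made from a pool of 20 larvae, so there are 2 libraries, no replicate check for any difference and no statistical test, and every value describes these pools. The gene that lri25 affects is not named in the labels used here, so its transcript did not check the genotypes.

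The lens is made of an epithelium at its front and of fibre cells that elongate, lose their organelles and fill with crystallins. Fibre cells pack tightly through membrane proteins. The product of the Mip genes, also called aquaporin 0, is the main channel of fibre membranes and also helps hold neighbouring cells together, and the Lim2 product is a small membrane protein of fibre junctions in mammals. Beaded filaments, found in lens fibres, are assembled from filensin and phakinin, the products of Bfsp1 and Bfsp2. Among the transcription factors, FOXE3 keeps the lens epithelium dividing, PITX3 is a homeodomain factor whose mutations cause cataract in humans, and HSF4 is a heat shock factor needed for fibre maturation in mice.

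Transcripts of 4 of the 5 fibre membrane genes, mipa, mipb, lim2.3 and lim2.4, were lower in mutants by 2-fold or more. The fifth, lim2.1, the filament gene bfsp2 and the factor genes pitx3 and hsf4 lay less than 2-fold apart. Values are FPKM, fragments scaled to transcript length and library size, so levels can be compared between genes on a per-length scale. Differences are log2((mutant FPKM + 1)/(wild-type FPKM + 1)), and a gene was counted as lower or higher at a difference of 1 on that scale, called a 2-fold difference. Fold values given for single genes are plain ratios of FPKM. Because of the added 1, a gene just past 2-fold or at a low level by plain ratio can miss the count. Of the 9 genes found, 8 reached 1 FPKM in at least 1 library and were compared, and 4 of these 8 were at least 2-fold lower in the mutant, all of them membrane genes, with 0 at least 2-fold higher. Among all 20256 genes compared, 7.12% lay at least 2-fold lower while 6.08% lay at least 2-fold higher. The median difference of the 8 genes was -1.08, beside -0.01 for all genes compared. In RNA of whole larvae, fewer lens fibre cells and less of a transcript per cell cannot be told apart. Expression of these genes outside the lens was not checked.

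**Figure D1:**
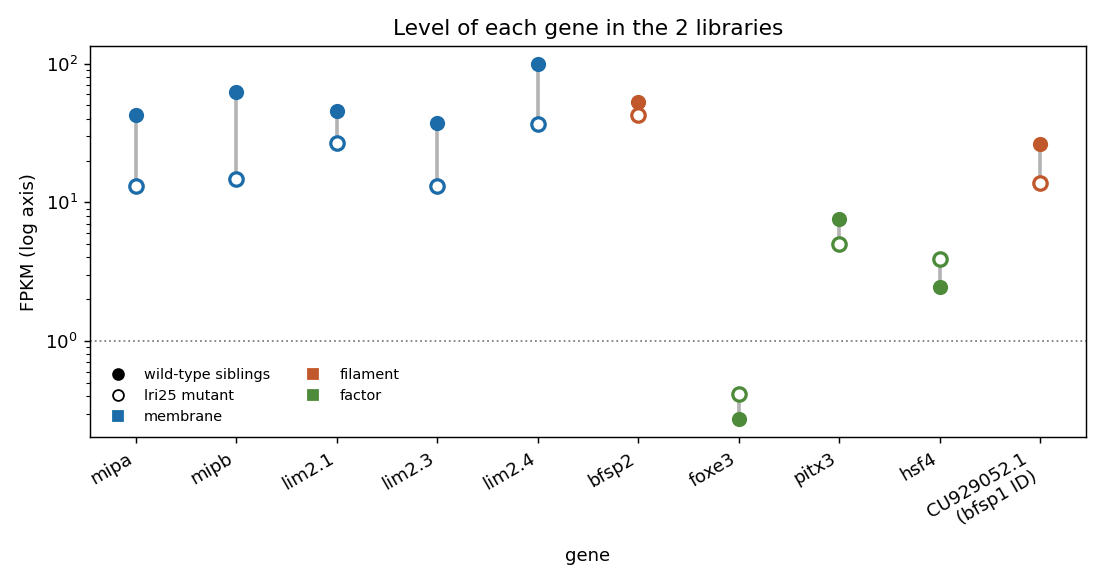
The vertical axis gives FPKM on a log scale for each gene, with filled points for the wild-type sibling library and open points for the mutant library, 1 library each, and the dotted line marks 1 FPKM. The 5 membrane genes have open points below filled ones, bfsp2 nearly overlaps at 52.6 and 42.5 FPKM, and foxe3 and hsf4 have the open point on top.

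The water channel gene mipb (ENSDARG00000013963, chromosome 23, 6685985 to 6712263 in build Zv9) was at 62.0 FPKM in wild-type siblings against 14.7 FPKM in mutants. That is 4.22-fold lower, a difference of -2.00, the lowest of the set. Its locus in the table is shared with si:ch211-147f12.7, which is listed at 0 in both libraries. The second water channel gene, mipa (ENSDARG00000037285, chromosome 23, 27308862 to 27313411), was at 42.9 FPKM in wild-type siblings against 13.0 FPKM in mutants, 3.29-fold lower, with a locus of its own and a difference of -1.64. The wild-type library thus held 1.45 times as much mipb as mipa and the mutant library 1.13 times as much. Summed over both channels the level was 105 FPKM in wild-type siblings against 27.8 FPKM in mutants, 3.78-fold lower. FPKM is scaled to the length of each transcript, so that sum can still depend in part on how reads were divided between the paralogues.

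The authors' deposited table gives its own comparison of the same 2 libraries, which speaks of these libraries and not of the genotypes. For mipb the authors' deposited table lists a q-value of 0.0430 and marks the gene as significant. Of the 9 genes it alone is so marked, and 0.267% of the 14613 genes which that table tested are marked and lower in the mutant. For mipa the authors' deposited table lists a q-value of 0.162, and for lim2.4 a q-value of 0.439. The other 5 tested genes are at 0.996 in the authors' deposited table, and foxe3 was not tested there.

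Among the Lim2 genes, lim2.4 (ENSDARG00000015445, chromosome 19, 11163618 to 11176198) had the highest level of the whole set, at 99.7 FPKM in wild-type siblings against 36.5 FPKM in mutants. It was 2.73-fold lower, a difference of -1.43. lim2.3 (ENSDARG00000037402, chromosome 15, 18568637 to 18575408) was at 37.1 FPKM in wild-type siblings against 13.0 FPKM in mutants, 2.86-fold lower, a difference of -1.45. These genes differed by nearly the same factor although their levels were far apart. lim2.1 (ENSDARG00000068974, chromosome 10, 30804032 to 30810922) was at 45.2 FPKM in wild-type siblings against 26.7 FPKM in mutants, 1.69-fold lower, and its difference of -0.74 was short of 2-fold. Of the summed level of the 3 genes, lim2.1 supplied 24.8% among wild-type siblings and 35.1% among mutants, while lim2.4 supplied 54.8% and 47.9%.

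The same family has 2 more genes in the table, outside the set. lim2.5 (chromosome 16, 53692585 to 53707225) was at 22.1 FPKM in wild-type siblings against 2.71 FPKM in mutants, 8.15-fold lower, a larger factor than that of any gene of the set. lim2.2, picked out with its values already known, lay near the floor at 1.96 and 0.764 FPKM. Over all 5 Lim2 genes the summed level was 206 FPKM in wild-type siblings against 79.7 FPKM in mutants, 2.59-fold lower. Of that sum lim2.5 made up 10.7% in wild-type siblings and 3.40% in mutants.

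Filament genes differed less than the water channels. Phakinin, bfsp2 (ENSDARG00000011998, chromosome 2, 32479005 to 32486826), was at 52.6 FPKM in wild-type siblings against 42.5 FPKM in mutants, 1.24-fold lower, a difference of -0.30. In the wild type the level of bfsp2 lay below that of mipb, at 0.847 of it, and in the mutant it was 2.89 times that of mipb. Set beside lim2.4, its level was the lower one among wild-type siblings and the higher one among mutants, where bfsp2 stood highest of the set.

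A row for filensin was reached by its identifier only. The gene name table supplied with the reference gives ENSDARG00000074919 the symbol BFSP1, and in the deposited table that identifier carries the clone-based name CU929052.1 (chromosome 13, 853619 to 871796). This row was at 26.2 FPKM in wild-type siblings against 13.7 FPKM in mutants, 1.92-fold lower, a difference of -0.89. The level of bfsp2 was 2 times that of this row in siblings and 3.10 times in mutants. Because it was not found by symbol it is in none of the counts above, and with it 4 of 9 genes would be at least 2-fold lower.

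The factor genes had low levels. pitx3 (ENSDARG00000070069, chromosome 13, 6659687 to 6677113), which in mice is also expressed in dopaminergic neurons, was at 7.52 FPKM in wild-type siblings against 4.97 FPKM in mutants, 1.51-fold lower, a difference of -0.51. hsf4 (ENSDARG00000013251, chromosome 18, 22520443 to 22534348) was at 2.43 FPKM in wild-type siblings against 3.92 FPKM in mutants, 1.61-fold higher, a difference of 0.52, and was the 1 compared gene of the set with a higher value in the mutant. Its locus is shared with si:dkey-3l5.2, at 1.91 FPKM in wild-type siblings against 3.56 FPKM in mutants, and reads of the 2 genes may have been divided between them.

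foxe3 (ENSDARG00000062892, chromosome 8, 20206672 to 20208323) was at 0.272 FPKM in wild-type siblings against 0.415 FPKM in mutants, under the floor of 1 FPKM. The steps between very low values show what 1 fragment is worth. For the 510 genes above 0 and under 0.5 FPKM in both columns, mutant FPKM divided by wild-type FPKM was sorted into steps of 0.02. The fullest step, from 0.76 to 0.78, held 131 genes with a median of 0.769. Steps with at least 15 genes formed 3 groups, 187 genes from 0.74 to 0.78, 37 from 0.36 to 0.40 and 71 from 1.5 to 1.56, and the remaining 215 were spread outside these. Equal fragment numbers would give the main group if the mutant library was 1.30 times deeper. The ratio of foxe3 was 1.52, inside the highest group and 1.98 times the median of the fullest step, as 2 fragments in the mutant library against 1 in the wild type would give. No direction can be read for foxe3 at this depth.

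Ordered by level in the wild-type library, the genes ran lim2.4, mipb, bfsp2, lim2.1, mipa, lim2.3, pitx3, hsf4 and foxe3. In the mutant library bfsp2 came first, then lim2.4, lim2.1, mipb, mipa and lim2.3, with the last 3 between 13.0 and 14.7 FPKM, and then pitx3, hsf4 and foxe3. With 1 library per genotype there is no spread against which neighbours in these orders could be told apart.

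The membrane genes and bfsp2 share a range of expression by the higher of their 2 values, so they can be read beside genes of similar higher value. In the class of 3710 genes whose higher value lay from 20 to under 100 FPKM, 4.85% were at least 2-fold lower in the mutant, and the median difference was 0.05. Of the set, 6 genes fall in that class, and 4 of the 6 were at least 2-fold lower. Of these, mipa, mipb and lim2.3 are in the class through the wild-type value only, being under 20 FPKM in the mutant. This count is therefore a description and no separate support for a difference. Counted from the lowest difference in that class, mipb was gene 63, mipa gene 85, lim2.3 gene 99 and lim2.4 gene 103. lim2.1 was gene 303 and bfsp2 gene 883.

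**Figure D2:**
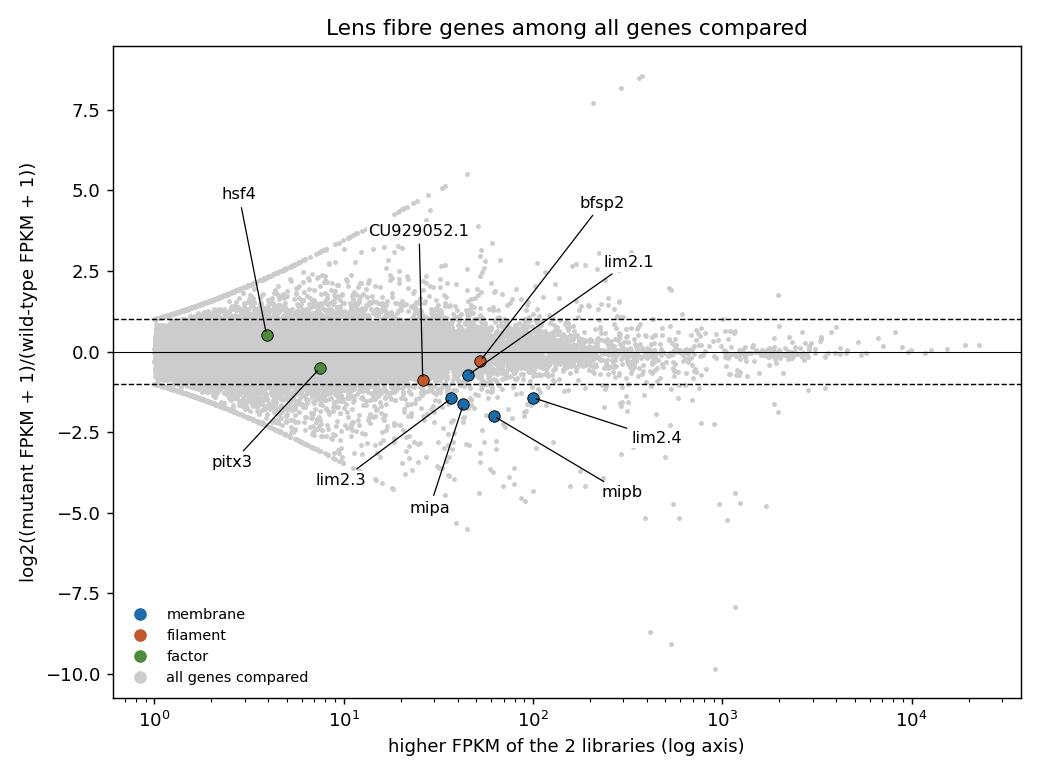
Each grey point is 1 of 20256 genes, with the higher FPKM of the 2 libraries on a log axis against log2((mutant FPKM + 1)/(wild-type FPKM + 1)), and dashed lines mark a 2-fold difference. Coloured points are the 8 genes compared and the row CU929052.1, and mipb, mipa, lim2.3 and lim2.4 lie under the lower dashed line.

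Other lens genes outside the set showed a mixture. The list of these holds 51 symbols for lens junction, cytoskeleton and RNA-binding proteins and for factors of lens development, many of which other tissues express as well. Of these 42 were found and compared, with a median of -0.23. By 2-fold or more on the log2 scale with 1 added, 6 were lower and 1 was higher, beside 7.12% and 6.08% of all genes compared. By plain ratio prox1a at 2.18-fold, six3a at 2.02-fold and lim2.2 at 2.57-fold lower would count too. Lowest were grifin, a galectin-related lens protein gene, at 22.2 FPKM in wild-type siblings against 2.03 FPKM in mutants, then lim2.5, then lctlb, a klotho-related gene, at 6.22 and 1.78 FPKM and a shared locus. Highest was epha2a, an ephrin receptor gene, at 5.87 FPKM in wild-type siblings against 13.2 FPKM in mutants, followed by capn3b, a calpain protease gene at a shared locus, at 10.6 and 19.0 FPKM.

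Relatives of the set that other tissues express were listed by family, and whether the lens expresses them too was not checked. Of 14 compared rows for other aquaporins, 1 was lower by 2-fold or more and 1 higher by that much, with a median of -0.21. These extremes were aqp9b, at a shared locus, at 44.2 and 5.24 FPKM, and aqp7, at 2.82 and 11.8 FPKM, both channels that also pass glycerol. A count of 1 in 14 lies near the shares of all genes compared, 7.12% lower and 6.08% higher. Among 12 type III and IV intermediate filament genes the median was -0.33, with 2 at least 2-fold lower and 1 higher. They were inaa, a neuronal filament gene, at 16.8 FPKM in wild-type siblings against 2.32 FPKM in mutants, and the desmin genes of muscle, desmb at 15.7 and 4.20 FPKM and desma at 129 and 277 FPKM. The 5 compared relatives of the factor genes had a median of -0.34, and 0 of them were 2-fold apart.

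Crystallins, the soluble proteins of the fibre cytoplasm, offer a scale within the lens. Their 58 rows summed to 19100 FPKM in wild-type siblings against 12400 FPKM in mutants, 1.55-fold lower. The 49 compared had a median of -0.67, and 7 of them were at least 2-fold lower, beside 7.12% of all genes compared. They ranged from -2.1 to 0.61, so their sum does not stand for each of them. The crystallin gene crygmx, at 237 and 71.7 FPKM, lay at -1.71, a lower difference than that of mipa at -1.64. The listed crystallin genes include near copies whose reads may have been divided. As a percentage of that sum, mipb was 0.325% in wild-type siblings against 0.119% in mutants, and mipa 0.224% and 0.106%. lim2.4 was 0.522% in wild-type siblings against 0.295% in mutants. lim2.1 was closer on this scale, at 0.236% in wild-type siblings against 0.216% in mutants. bfsp2 had the opposite direction, at 0.275% in wild-type siblings against 0.344% in mutants. With every mutant value rescaled by the crystallin sum, 2 of the 8 genes, mipa and mipb, were at least 2-fold lower. On that scale hsf4, with low levels and a shared locus, was at 1.04, at least 2-fold higher. The share of all genes that far higher on it was not counted. For all genes compared the wild-type values were rescaled instead, and 3.16% were at least 2-fold lower. With the pseudocount these 2 ways of rescaling can differ at low values, so that share is only a rough guide. No test of the difference between the set and the crystallins was possible with 1 library per genotype.

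**Figure D3:**
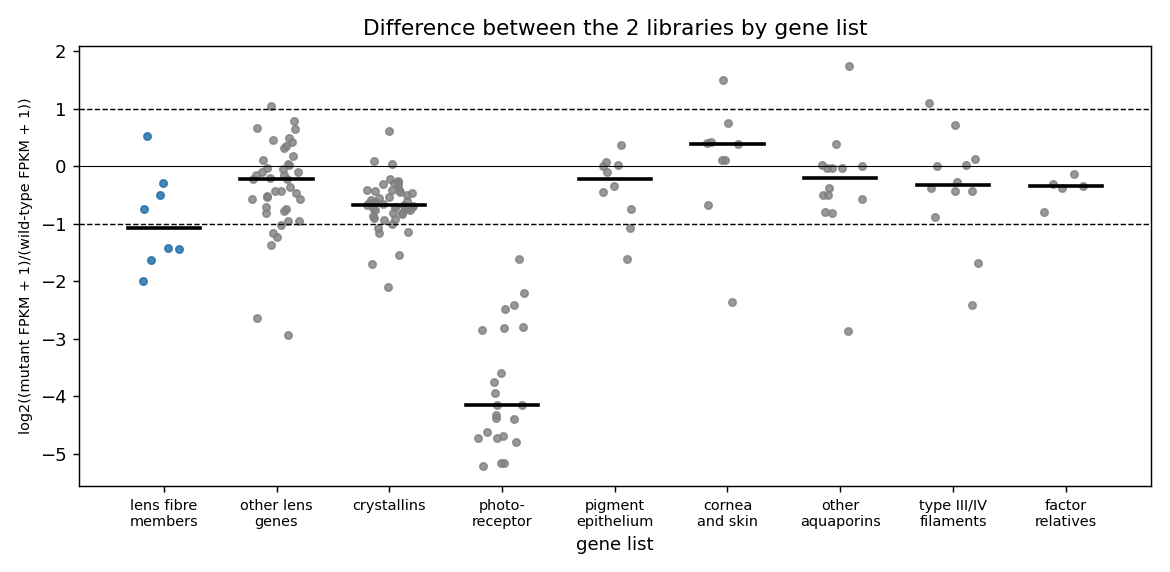
Each point is 1 compared gene, placed by log2((mutant FPKM + 1)/(wild-type FPKM + 1)) within its list, and horizontal bars are list medians. The 8 lens fibre genes have a median of -1.08, the crystallins -0.67, the other lens genes -0.23 and the photoreceptor markers -4.16.

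Markers of other cells of the eye and surface were read in the same libraries. Of the photoreceptor markers, 23 of 23 rows were at least 2-fold lower, with sums of 8620 FPKM in wild-type siblings against 325 FPKM in mutants and none listed at 0. Among all genes compared, the shares at least 2-fold lower and higher were 7.12% and 6.08%. Of 10 compared pigment epithelium markers 2 were at least 2-fold lower and 0 higher, around a median of -0.22, with sums of 640 and 527 FPKM over the list. That median and those sums mix unlike genes, named here after their values were seen. Differences were -1.62 for rdh5, -1.08 for rgra and -0.74 for rpe65a. The melanin genes dct, tyrp1b and pmela lay at -0.11, 0.02 and 0.07, and lratb was highest at 0.37. Whether pigment cells outside the eye express genes of this list was not checked. Cornea and skin markers summed to 7320 FPKM in wild-type siblings against 8650 FPKM in mutants. Most of each sum was krt4, named after its values were seen, at 4980 and 6640 FPKM. The next largest, krt5, was lower in the mutant, at 1570 and 982 FPKM. Of the 9 markers 7 did not lie below 0, around a median of 0.38, while 51% of all genes compared lay below 0. In that list 1 gene was at least 2-fold lower, the corneal matrix gene kera at 33.3 and 5.68 FPKM, and 1 higher, the skin claudin gene cldnf at 3.18 and 10.8 FPKM. These counts of 1 in 9 lie near the shares of all genes compared. The part of these differences in the values of the lens genes was not tested.

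The genes with the pattern most like mipa over the 2 libraries, by distance in log2(FPKM + 1), were CIR1 at 42.7 and 13.7 FPKM, mb at 45.7 and 12.8 FPKM and foxg1b at 47.1 and 14.3 FPKM. Most like mipb were syt5b at 69.5 and 13.8 FPKM, rheb at 56.2 and 13.5 FPKM and PTGDS (2 of 3) at 70.8 and 13.3 FPKM. Within a distance of 0.5 there were 32 genes for mipa and 12 for mipb, and likeness over 2 libraries separates few patterns.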

How the data were processed

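Per the labels' protocols, total RNA of whole larvae was sequenced with Illumina libraries. CASAVA, Bowtie and build Zv9 appear, without versions, in the submitters' processing notes. The sources used here do not say which program made the table. The authors deposited 1 table with an FPKM value per gene and library and with their own p-value and q-value comparing the 2 libraries, per the file headers. Its columns have short codes for wild type and mutant, matched to the labels' titles. The unit FPKM was read from the table's layout and values. Identifiers come from the second identifier column. Starts were written 1-based, since 4 of 4 mitochondrial genes with the same end as the reference started 1 base lower in the table. No fragment totals were used, so no counting error is attached to a value.

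Differences were computed with Python 3.11.15, pandas 2.3.3 and numpy 2.4.6, using a pseudocount of 1 and a floor of 1 FPKM in at least 1 library. The calling step was run on simulated data in which some genes were lowered far beyond 2-fold with little noise. That only checks the code and does not bear on smaller differences or on the spread between pools. No test was run. The genes, the lists and their naming rule (in each list the 3 lowest and 2 highest could be named, and not all are, and for mipa and mipb the 3 nearest genes) were chosen with earlier results of these data known. Alternatives were other pseudocounts, floors and scalings and leaving out shared loci. No sequence is shown, because none was used here, and a planned count of promoter motifs was not run.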

Additional observations from a re-analysis of the deposited data

How the results depend on the processing

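The count of 4 lens fibre genes at least 2-fold lower held with pseudocounts of 0.1 and 5, without a floor, with a floor of 5 FPKM and with the median of all genes set to 0, and was 3 without genes at a shared locus, which leaves out mipb. Relative to the crystallin sum, a scaling added after the values were seen, it was 2. Their median of -1.08 was -1.10 and -0.94 with those pseudocounts, -0.74 without a floor, which adds foxe3, -1.43 with a floor of 5 FPKM, -1.07 after median rescaling, -0.89 with the row named BFSP1 and -0.47 relative to the crystallins. The count of 6 other lens genes at least 2-fold lower was 9 and 3 with the pseudocounts 0.1 and 5, 3 without shared loci and 2 relative to the crystallins. The median of those genes was -0.25, -0.16 and -0.21 with the pseudocounts 0.1 and 5 and after median rescaling, and 0.27, reversed, relative to the crystallins. On that scaling bfsp2 was at 0.32 and pitx3 at 0.03, both reversed, and hsf4 was at 1.04, which counts as at least 2-fold higher. No paired analysis was possible because each genotype has 1 library. The depth limits foxe3 most, and no spread between pools is known.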

Other observations

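The 2 nearest compared genes on each side of each lens fibre gene, 36 genes in all, had a median difference of -0.13. Of the 36, 7 were lower by 2-fold or more, a larger share than the 7.12% of all genes compared. Higher by that much were 3 of the 36, beside 6.08% of all genes compared. Both water channel genes lie on chromosome 23, and the other 7 genes lie on 7 different chromosomes. The 4 neighbours of mipb lay from -0.23 (rbm38) to 0.32 (ptges3b) on the log2 scale. The 7 lower neighbours, named after their values were seen, include si:dkey-4p15.5 at -2.90 and picalmb at -1.84 beside lim2.3. Others are zgc:136930 at -2.28 beside bfsp2 and si:dkey-157g16.7 at -1.38 beside mipa. The rest are si:ch211-171h4.3 at -1.09 beside lim2.4, FAM78B (1 of 2) at -1.09 beside foxe3 and bsx at -1.03 beside lim2.1. These had low levels, in that order 2.46 and 0.621 FPKM, 1.13 and 0 FPKM, and 2.68 and 0.802 FPKM. The 3 higher neighbours, also named after their values were seen, are 2 rows of tnfaip2b at 3.19 and 1.77 beside pitx3 and il11b at 1.93 beside lim2.4. In that order they were at 0.214 and 10.1 FPKM, 0 and 2.41 FPKM, and 0 and 2.81 FPKM.

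Other genes of lens development outside the set, named after their values were seen, differed to varying degrees. The eye field factor gene pax6a, at a shared locus, was at 28.9 FPKM in wild-type siblings against 12.4 FPKM in mutants, and its paralogue pax6b at 9.55 and 7.17 FPKM. The fibre factor gene prox1a was at 8.59 and 3.94 FPKM, and the calpain gene capn3a at 57.1 and 23.6 FPKM. The lens gap junction gene cx44.1 was at 2.55 and 2.47 FPKM and cx23 at 9.25 and 5.25 FPKM. The Maf factor genes maf and mafa lay close together, at 7.66 and 6.53 FPKM and at 8.41 and 7.39 FPKM. That these named genes were all lower in the mutant follows from how they were picked and is no separate support, and cx44.1 was nearly level. Of the 42 other lens genes compared 29 lay below 0, beside 51% of all genes compared. Relatives of the named genes were mixed. The genes prox1b, at 3.58 and 2.07 FPKM, and mafga, at 2.04 and 1.26 FPKM, were lower too, and others went the other way. The Maf factor gene mafba was at 13.4 and 15.2 FPKM, and mafbb, at a shared locus, at 11.4 and 18.8 FPKM. The gap junction gene gja3, near the floor, was at 1.04 and 1.81 FPKM.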
